A study of Mus musculus with 4 samples.

Results

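The nuclear genes for subunits of the mitochondrial respiratory chain and ATP synthase were examined in sorted mouse hair follicle stem cells. Members were chosen by gene symbol alone: Nduf followed by a, b, c, s or v and a digit (complex I), Sdha to Sdhd (complex II), symbols starting with Uqcr (complex III), the Cox4 to Cox8 symbols that carry a further a, b or c (complex IV) and symbols starting with Atp5 (complex V). This took 82 of the 24084 gene rows of the count table, of which 37 belong to complex I, 4 to complex II, 8 to complex III, 16 to complex IV and 17 to complex V. The symbols leave out a few subunits, such as Cox4i1 and Cyc1, and take in Atp5s and Atp5sl, which are related proteins rather than subunits, and Ndufa4, also described as a subunit of complex IV.

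The chain sits in the inner mitochondrial membrane. Complexes I and II pass electrons from NADH and succinate to ubiquinone, complex III passes them on to cytochrome c, complex IV passes them to oxygen, and complex V uses the resulting proton gradient to make ATP. Complex II is encoded by nuclear genes only, whereas the other complexes also hold subunits encoded by mitochondrial DNA. In skin, quiescent hair follicle stem cells are known for relying on glycolysis, and the balance with respiration is a recurring question when follicles enter growth.

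The study compared hair follicle stem cells of mice with and without regulatory T cells during induced hair growth. All mice were C57BL/6, 7 to 10 weeks old, given 15 ng/g diphtheria toxin intraperitoneally, and taken on day 4 after the back was depilated. In Foxp3-DTR mice, cells that express the regulatory T cell factor Foxp3 carry a receptor for the toxin, so that the toxin removes them, and these mice are labelled as depleted of regulatory T cells. WT mice received the same toxin and are labelled as having regulatory T cells. The WT libraries are WT A and WT C, and the Foxp3-DTR libraries are Foxp3-DTR C and Foxp3-DTR D, so n = 2 per group. Whether each library is a mouse of its own is not stated in the sources used here, so p-values reflect the spread among these 4 libraries alone and that spread may be technical. Where 4 values stand together without names, they are those of WT A, WT C, Foxp3-DTR C and Foxp3-DTR D in this order.

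The libraries held 13911765 to 15923154 counts on genes. The follicle stem cell markers Cd34, Krt15, Sox9, Lgr5, Lhx2 and Nfatc1 were present at 352 CPM (counts relative to a library size that was scaled with TMM factors) or more in every library. The sum of 7 interfollicular differentiation markers (Krt1, Krt10, Lor, Ivl, Flg2, Krtdap, Dsg1a) differed widely within each group: it was 7427 CPM in WT A and 557 in WT C, and 857 and 6392 CPM in Foxp3-DTR C and D. Xist was at 861 and 2482 CPM in the WT libraries and at 1.86 and 0 in the Foxp3-DTR libraries, and 4 Y-linked genes were at 0 in WT only, so sex cannot be told apart from the group, nor can the sample code, which is DEP2 in all WT titles and DEP3 in all Foxp3-DTR titles. Respiratory chain members on the X chromosome were Ndufa1, Ndufb11 and Cox7b, with log2 fold changes of -0.20, -0.10 and -0.11.

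Respiratory chain RNA was abundant in all 4 libraries. Members together took 1.09% of gene counts in WT A (95% Wilson interval 1.088 to 1.099) and 0.812% in WT C (0.807 to 0.816). The share was 0.912% (0.907 to 0.916) in Foxp3-DTR C and 1.02% (1.018 to 1.029) in Foxp3-DTR D. These intervals cover counting error only. The members' share was highest in a WT library and lowest in the other, with both Foxp3-DTR libraries between them, so the groups overlapped.

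Levels of different genes are compared per kilobase of annotated exons, as a mean ± SD over the 4 libraries. The highest was Atp5a1, the catalytic core's alpha subunit of ATP synthase, at 351 ± 32.6 CPM per kb. It was followed by 2 genes of complex IV, Cox8a at 272 ± 55.3 CPM per kb and Cox6b1 at 246 ± 46.3, and by Atp5b, the beta subunit that carries the catalytic sites, at 257 ± 39.9. Cox8a, Atp5b and Cox6b1 did not differ from each other beyond their spread. In complex III the highest were Uqcrh, the hinge protein, at 206 ± 35 CPM per kb and Uqcr10 at 145 ± 22. In complex I they were Ndufa11 at 159 ± 30.9 CPM per kb and Ndufa2 at 147 ± 32.8, both accessory subunits. In complex II, Sdhd, a membrane anchor, was at 116 ± 12.7 CPM per kb, above the iron-sulfur subunit Sdhb at 59.9 ± 6.77, the flavoprotein Sdha at 53.7 ± 4.81 and the second anchor Sdhc at 50.2 ± 6.54, and these last 3 lay within about their spread of each other. Measured against the length of the transcript with the longest coding sequence instead of all annotated exons, Atp5b came first in complex V at 567 CPM per kb and Sdhb stood beside Sdhd at 117 and 116, so the order among the leading genes depends on the length used.

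**Figure D1:**
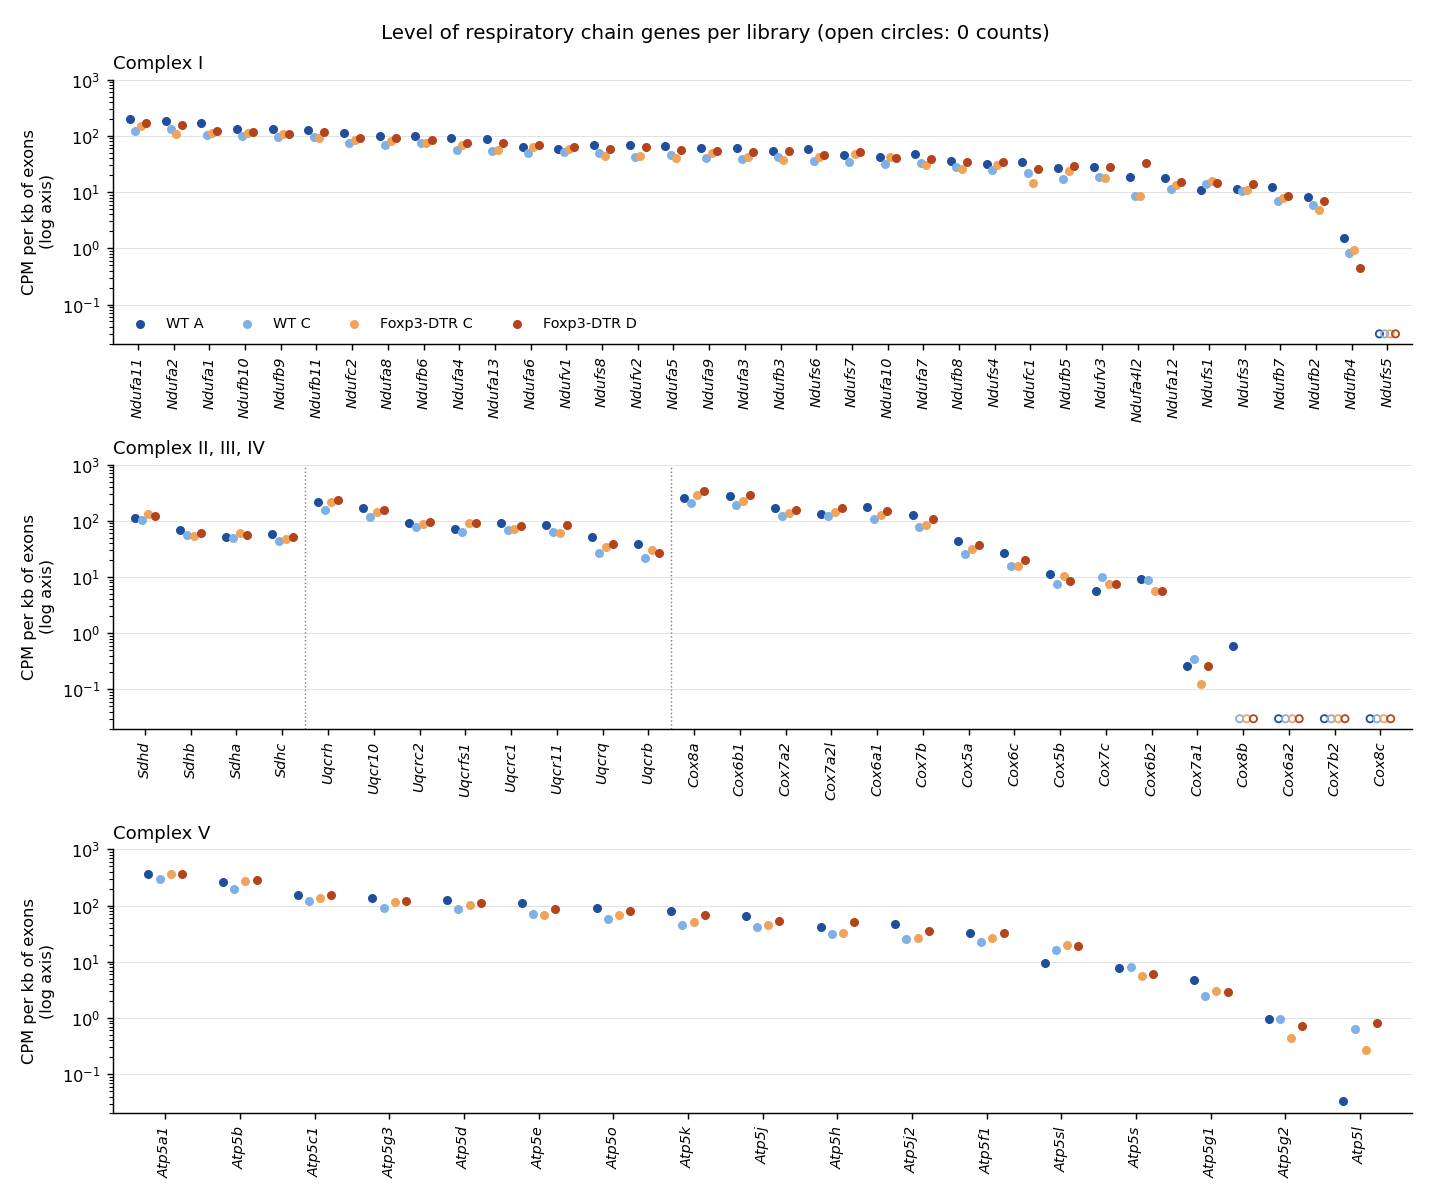
Level of the 82 genes, apart from 1 that is not shown, in each library, in CPM per kilobase of exons on a log axis, ordered by mean level within complexes (top, complex I; middle, complexes II, III and IV, separated by dotted lines; bottom, complex V); open circles mark 0 counts. Most genes form tight groups of 4 points between 10 and 400 CPM per kb. Ndufs5, Ndufb4, Atp5g2, Atp5l and the tissue-restricted complex IV isoforms other than Cox6b2 sit far below.

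Members known as isoforms of other tissues were at or near 0. Cox6a2, the heart and skeletal muscle form of Cox6a, and Cox7b2 and Cox8c, known from testis, had 0 counts in every library, which allows up to 0.185 to 0.213 CPM at 3 counts per library. Cox7a1, the muscle form of Cox7a, had 2, 3, 1 and 2 counts, and Cox8b, another muscle form, had 3 counts in WT A and 0 in the others. Skeletal muscle markers were near 0 as well, with a sum of at most 0.492 CPM and with Acta1 and Myh4 at 0. Cox6b2, best known from testis, was the exception: it was measured at 10.3, 9.66, 6.23 and 6.31 CPM. Ndufa4l2, a hypoxia-inducible relative of Ndufa4, was at 20.7, 9.23, 9.42 and 35.5 CPM, high in WT A and Foxp3-DTR D and low in the other libraries, with the groups overlapping.

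Several subunits that every cell with a respiratory chain is expected to use were nevertheless among the lowest. Leaving aside the 9 tissue isoforms and related proteins, the 10 lowest of the remaining 73 members per kilobase were Ndufs5, Atp5l, Atp5g2, Ndufb4, Atp5g1, Ndufb2, Cox7c, Ndufb7, Cox5b and Ndufs3. All 10 have at least 1 near-identical copy among annotated mouse transcripts, here a gene whose sequence covers at least 80% of the coding sequence at 90% identity or more. With transcript length in place of exon length, 9 of the 10 lowest have one. In all, 32 of the 82 members have such copies, 70 copies in total, 67 of them annotated as pseudogenes. The deposited counts left out reads that align to more than 1 place. A level of a gene with copies is therefore uncertain, as is its difference between groups. The extent differs among these genes. Ndufb7 has no 50-base window that occurs in another gene's transcript, and Ndufb2 has 5.39%. With transcript length, Ndufb7 was at 65.1 CPM per kb, against 8.96 with exon length. The part of copies in these levels was not tested.

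Ndufs5, a complex I subunit of the intermembrane space side, had a row with 0 counts in all 4 libraries. BC002163, an annotated copy at chr16:42955631-42955949 (GRCm38, plus strand) with 99.4% identity over the coding sequence, held 454 and 305 counts in WT A and WT C, and 293 and 391 in Foxp3-DTR C and D. The first 90 coding bases are shown for the gene (chr4:123712710-123718202, minus strand) and the copy, from the GENCODE transcripts, with the single differing base in capitals.
Ndufs5: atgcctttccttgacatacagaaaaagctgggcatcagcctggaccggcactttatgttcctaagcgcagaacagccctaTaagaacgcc
BC002163: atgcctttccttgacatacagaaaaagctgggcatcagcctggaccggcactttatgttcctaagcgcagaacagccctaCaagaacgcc
A read inside this stretch that does not cover the differing base has the same letters in both transcripts. Over the whole Ndufs5 transcript, 31.1% of windows occur in a transcript of another gene, and the remaining windows do not. Why the Ndufs5 row held 0 counts while BC002163 held counts in all 4 libraries was not tested. The log2 fold change of BC002163 was -0.11 ± 0.34 (SE; edgeR adjusted p = 0.933).

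Cox7c, a small complex IV subunit (chr13:86044816-86046904, minus strand), had 90 and 180 counts in WT A and WT C, and 130 and 118 in Foxp3-DTR C and D. Its pseudogene Gm12338 (chr11:75599763-75599954, minus strand), identical over the whole coding sequence, had 694, 546, 696 and 631 counts in the same order, 4.96 times as many in sum. The first 90 coding bases, shown to make that identity visible, contain no difference.
Cox7c: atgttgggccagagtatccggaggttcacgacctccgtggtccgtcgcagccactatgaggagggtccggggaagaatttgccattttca
Gm12338: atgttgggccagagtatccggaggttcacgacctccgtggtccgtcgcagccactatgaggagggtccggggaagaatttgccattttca
WT A was the lowest of the 4 libraries in the Cox7c row and not in the Gm12338 row. The log2 fold change between groups was -0.04 ± 0.43 (SE; edgeR adjusted p = 0.983) for Cox7c and 0.14 ± 0.24 (adjusted p = 0.864) for Gm12338.

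Atp5l, the g subunit of ATP synthase (chr9:44912557-44920742, minus strand), has 14 near-identical copies, the most of any member, and 84.8% of the 50-base windows of its transcript occur in a transcript of another gene. It had 3 and 66 counts in WT A and WT C, and 26 and 74 in Foxp3-DTR C and D. It varied widely within each group, and the groups overlapped. Its log2 fold change of 0.70 ± 1.26 (SE; edgeR adjusted p = 0.874) was the highest positive value of the members and the least precise, while Ndufb4 and Atp5g2 had larger negative values of -0.76 and -0.73. The coding start of Atp5l and of 1 copy, the annotated pseudogene Gm10221 (chr5:24581554-24581862, minus strand), is shown because it too holds no difference.
Atp5l: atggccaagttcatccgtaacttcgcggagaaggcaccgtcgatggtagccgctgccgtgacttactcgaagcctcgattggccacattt
Gm10221: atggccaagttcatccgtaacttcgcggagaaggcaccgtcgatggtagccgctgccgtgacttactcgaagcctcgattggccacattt

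The c subunit of ATP synthase, which forms the rotor ring, is made from 3 genes with different transit peptides and the same mature protein. Atp5g3 was at 298, 199, 252 and 268 CPM. Atp5g1 was at 23.3, 12.1, 15.1 and 14 CPM, and Atp5g2 at 1.62, 1.60, 0.729 and 1.2. Per kilobase, Atp5g3 (117 ± 19 CPM per kb) was far above Atp5g1 (3.28) and Atp5g2 (0.769), but Atp5g2 shares 87.4% of its windows with other genes and Atp5g1 has 4 copies, so the order of these genes in the cells was not tested.

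Across the 73 members, the median level was lowest in those that share most sequence with other genes. The median was 72.6 CPM per kb for 29 members with no shared 50-base window, 61.1 for 31 members with up to 30% shared and 14.6 for 13 members with 30% or more. On the transcript-length scale the medians were 116, 116 and 40.4. Windows were matched on both strands, so overlap with a neighbouring gene at the same place also counted as shared. Ndufb6, with 0 copies and 34.1% shared, overlaps the antisense gene Smim27 by 257 bases. It was the highest of the last group, at 83.6 CPM per kb of exons. Spearman's rho between shared windows and level was -0.39 on exon length and -0.31 on transcript length, given as a description because the genes share the same libraries.

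**Figure D2:**
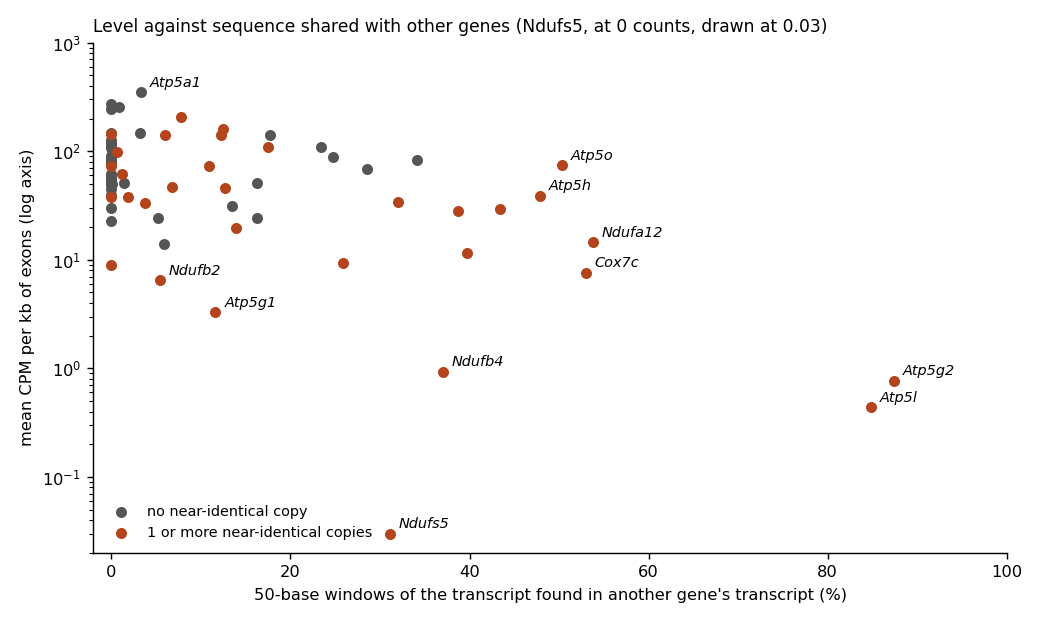
Mean level over 4 libraries (CPM per kilobase of exons, log axis) against the percentage of 50-base windows of the transcript found in another gene's transcript, for 73 broadly expressed members; rust points have at least 1 near-identical copy. The members under 10 CPM per kb are all rust, Atp5l and Atp5g2 lie beyond 80% shared, and Ndufs5 with 0 counts is drawn at 0.03. Windows were matched on both strands, and genes that overlap at the same place count as other genes.

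Depletion of regulatory T cells went with no change in a respiratory chain gene that passed the test. Of 76 members with enough counts, edgeR called 0 higher and 0 lower at an adjusted p under 0.05, while it called 106 (0.82%) of all 12920 genes tested higher in Foxp3-DTR and 55 (0.426%) lower. At these edgeR shares, less than 1 call would fall on 76 genes. By this measure, 0 calls among the members does not set them apart from all genes. DESeq2 called 7.4% of the genes with an adjusted p in either direction. It called 0 of the 78 members with at least 1 count, not all of which need have an adjusted p. limma-voom, which called 0.72% of genes, also called 0 members. At an unadjusted p under 0.05, edgeR had 1 member of 76, against 14.6% of all genes tested. Here and with DESeq2, the members' share was below that of all genes, a difference that was not tested. The 6 members not tested were Ndufs5, Cox7a1, Cox8b, Cox6a2, Cox7b2 and Cox8c.

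The estimates were also small. Log2 fold changes of members ran from -0.76 (Ndufb4, a complex I accessory subunit) to 0.70 (Atp5l), 30 were above 0 and 46 below (40 and 36 with limma-voom), and the median was -0.02, beside -0.01 for all genes. The 95% interval lay within a factor of 2 in both directions for 66 of 76 members (86.8%), against 50.6% of all genes tested, so changes beyond that size were outside the interval for most members. Smaller changes in either direction lie inside these intervals. By complex the median log2 fold change was -0.05 for I, 0.08 for II, 0.00 for III, -0.01 for IV and 0.00 for V, and in each complex it was below 0 without WT C and above 0 without WT A (-0.29 and 0.26 for I, -0.0315 and 0.23 for II, -0.21 and 0.39 for III, -0.23 and 0.32 for IV, -0.26 and 0.30 for V).

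**Figure D3:**
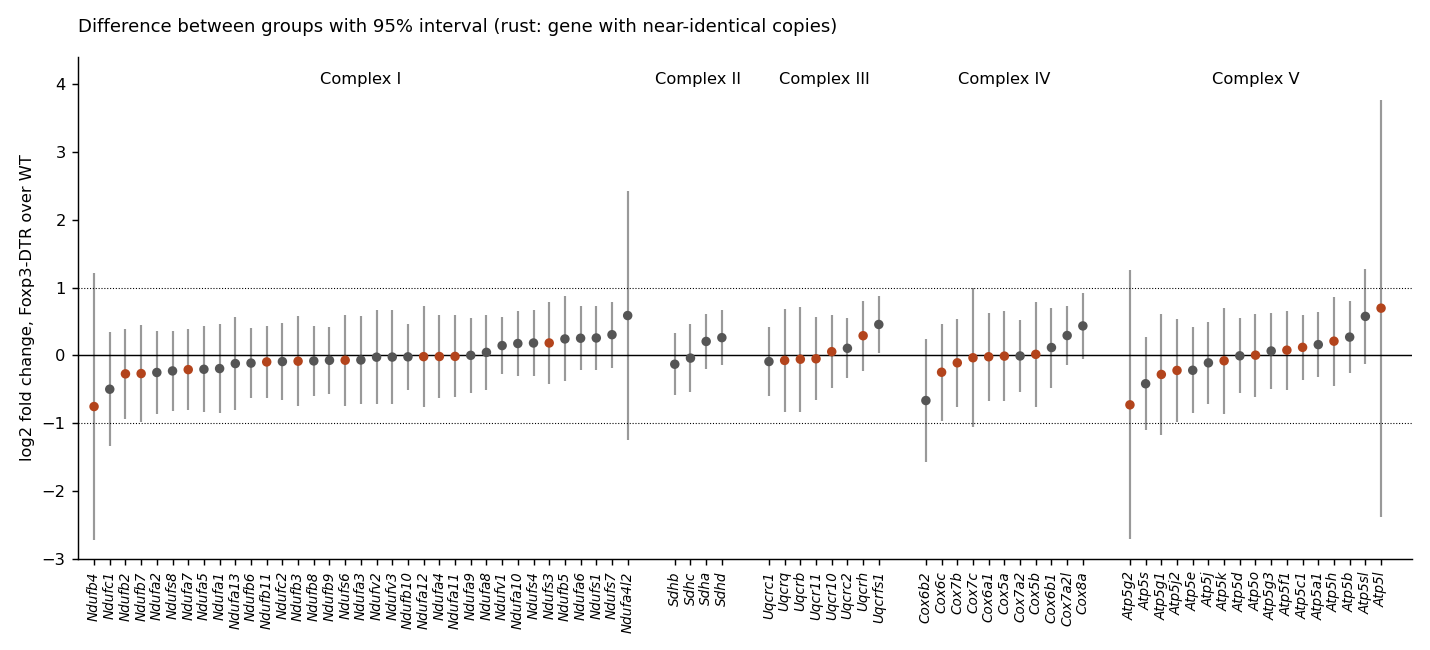
Log2 fold change of Foxp3-DTR over WT for the 76 tested members apart from 1 that is not shown (points) with the 95% interval (bars), ordered within each complex; dotted lines mark a factor of 2 and rust points have near-identical copies. Most points lie within 0.5 of 0, and the widest bars belong to Atp5l, Atp5g2, Ndufb4 and Ndufa4l2.

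In 17 of 76 members the libraries of the groups did not overlap, 14 higher in Foxp3-DTR and 3 lower. Over all genes tested, 22% were higher and 23.7% lower without overlap, or 45.7% together. The members' share of 22.4% in both directions together is below that background. Most of the shortfall is in the lower direction, where 3 members fell, and it was not tested.

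The member nearest to the threshold was Uqcrfs1, the Rieske iron-sulfur protein of complex III (chr13:30540308-30545362, minus strand), with no near-identical copy. It was at 96.4 CPM in WT A and 85.8 in WT C, and at 125 CPM in both Foxp3-DTR libraries. Both Foxp3-DTR libraries were above both WT libraries, by 0.45 ± 0.17 on the log2 scale (SE; 95% interval 0.04 to 0.87), and the edgeR adjusted p was 0.289. With a covariate for the interfollicular markers added, which leaves 1 residual degree of freedom, its edgeR adjusted p was 0.0582. The other complex III genes did not share this separation except Uqcrh, at 267, 192, 268 and 292 CPM with a log2 fold change of 0.29, where WT A and Foxp3-DTR C were nearly equal. Uqcrc1, the core protein with the lowest estimate of the complex, was at 380, 281, 291 and 329 CPM with a log2 fold change of -0.09, and Uqcr10 at 98.3, 67.8, 82.7 and 89.6 CPM with 0.05. In both, the WT libraries enclosed the Foxp3-DTR libraries.

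In complex II, Sdha, the succinate-oxidizing flavoprotein that also works in the citric acid cycle (chr13:74322254-74350280, minus strand), was at 210, 201, 246 and 228 CPM. Sdhd was at 135, 125, 159 and 152 CPM. For these genes the groups did not overlap and the differences were 0.20 ± 0.17 (SE; edgeR adjusted p = 0.679) and 0.26 ± 0.17 (adjusted p = 0.578) on the log2 scale. Sdhb, the partner of Sdha in the catalytic head, went the other way in estimate, at 154, 126, 119 and 137 CPM and -0.13, with overlapping groups. Over the 14 tested citric acid cycle genes the median log2 fold change was 0.04 with 0 called, and the smallest p belonged to Idh3b, a subunit of NAD-dependent isocitrate dehydrogenase, at 0.40 ± 0.18 (SE; edgeR adjusted p = 0.380).

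In complex I, Ndufs1, the largest subunit of the electron-accepting arm (chr1:63143596-63176833, minus strand), was at 89.9 CPM in WT A and 115 in WT C, and at 127 and 118 CPM in Foxp3-DTR C and D. The groups did not overlap, but the WT libraries differed from each other by more than WT C did from either Foxp3-DTR library, and the log2 fold change was 0.26 ± 0.20 (SE; edgeR adjusted p = 0.645). Among the 7 nuclear core subunits, which bind the flavin and iron-sulfur clusters, 5 estimates were above 0 with a median of 0.18, and 4 were higher in both Foxp3-DTR libraries. Among the 29 tested accessory subunits, 6 were above 0 with a median of -0.07, and 1 was higher without overlap; over all genes tested that share was 22%. Besides Ndufs1, examples of the core genes are Ndufs7 (78.8, 60.2, 81.9 and 89.6 CPM) and Ndufv1 (156, 136, 157 and 166 CPM), named after their values were seen. No difference between core and accessory genes was tested. Accessory genes at high level showed overlapping groups: Ndufa11 was at 215, 135, 163 and 183 CPM and Ndufa2 at 107, 76.2, 62.9 and 90.4.

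In complex IV, Cox8a, the smallest subunit of the ubiquitous enzyme (chr19:7215153-7217616, minus strand), was at 161, 126, 179 and 207 CPM. Both Foxp3-DTR libraries were above both WT libraries, with a log2 fold change of 0.43 ± 0.20 (SE; edgeR adjusted p = 0.406). Cox6b2 had the opposite separation in the values given above, with -0.67 ± 0.38 (adjusted p = 0.512). Cox6b1, the ubiquitous form of that subunit, was at 197, 137, 156 and 206 CPM and 0.11, with overlapping groups. Cox4i1, the largest nuclear subunit of the complex and outside the symbol rule, was at 499, 362, 452 and 524 CPM and also overlapped, while its hypoxia-linked form Cox4i2 had 0 counts.

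In complex V, Atp5a1 was at 1132, 948, 1160 and 1159 CPM, and Atp5b (chr10:128083273-128090391, plus strand) at 1136, 837, 1173 and 1203. In both genes WT A was close to the Foxp3-DTR libraries and WT C stood apart as the lowest. The log2 fold changes were 0.16 ± 0.20 (SE; edgeR adjusted p = 0.808) and 0.27 ± 0.22 (adjusted p = 0.676). Atp5sl, a related protein rather than an ATP synthase subunit, named after its values were seen, was at 28.2, 50, 59.3 and 57.3 CPM, with 0.57 ± 0.29 (adjusted p = 0.456). Its WT A value was well below WT C, the reverse of most members.

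The members varied together across the libraries, more within WT than between the groups. In 71 of 76 members (93.4%) WT A was above WT C, against 49.5% of all genes tested, with a median difference of 0.48 on the log2 scale. In 65 of 76 (85.5%) Foxp3-DTR D was above Foxp3-DTR C, against 49.8% of all genes, with a median difference of 0.19. The highest library was WT A for 51 members, Foxp3-DTR D for 18, Foxp3-DTR C for 5 and WT C for 2, and the lowest was WT C for 55. The 5 members in which WT A was not the higher WT library were Ndufs1, Cox7c, Atp5sl, Atp5s and Atp5l. Members vary in the same libraries, so they are not independent of each other.

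This order followed other measures of the libraries. The interfollicular marker sum was high in WT A and Foxp3-DTR D and low in WT C and Foxp3-DTR C, and 6 sebaceous gland markers summed to 2142 CPM in WT A against 437 to 562 in the other libraries. The share of all counts that aligned to more than 1 place was 61.3% and 51.8% in WT A and WT C, and 53.4% and 58.3% in Foxp3-DTR C and D. Genes with under 1500 exon bases differed by a median of 0.34 between WT A and WT C over all 901 tested, and by 0.50 over the 34 members of that length. The part of these measures in the members' order was not tested. In such bulk samples, fewer cells of a type and less RNA per cell cannot be told apart.

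**Figure D4:**
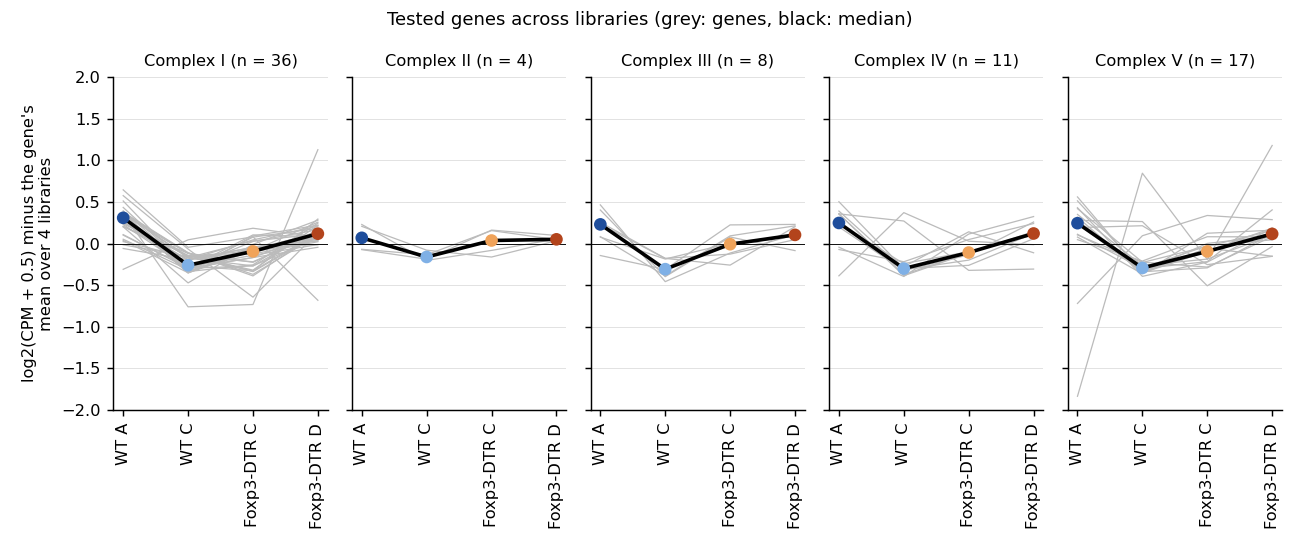
Each tested member (grey lines) across the 4 libraries by complex, as log2(CPM + 0.5) minus the gene's mean over the libraries, with the median as a black line and coloured points. In every complex the median is highest in WT A and lowest in WT C, with both Foxp3-DTR libraries between. Complex II, with 4 genes, varies least.

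Because WT A and WT C lie on either side of the Foxp3-DTR libraries, the sign of the comparison depends on which WT library is used. The median log2 difference over members was -0.38 for Foxp3-DTR C against WT A, -0.17 for Foxp3-DTR D against WT A, 0.16 for Foxp3-DTR C against WT C and 0.36 for Foxp3-DTR D against WT C. Without WT A the median log2 fold change was 0.29 with 69 of 76 members above 0, and without WT C it was -0.26 with 19 above 0. Called members numbered 0 in both cases. Complex II had the smallest within-group differences, with medians of 0.20 between the WT libraries and 0.04 between the Foxp3-DTR libraries.

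Genes that work with the chain were read in the same fit, and 0 passed the threshold in any of these lists. The 77 mitochondrial ribosomal protein genes had a median log2 fold change of -0.12 and were higher in WT A than in WT C by a median of 0.39, in 70 of 77 genes; the smallest p was that of Mrps6 at -0.77 ± 0.27 (SE; edgeR adjusted p = 0.255). The 44 assembly factors had a median of -0.14, with 15 above 0. Of these, Acad9, which is needed to assemble complex I, had the smallest p: it was at 281, 178, 87.7 and 110 CPM, a log2 fold change of -1.21 ± 0.27 (adjusted p = 0.0854). The 21 import genes had a median of 0.01, and the smallest p belonged to Hspa9, the matrix chaperone that pulls proteins in, at 0.36 ± 0.20 (adjusted p = 0.492). Of 9 tested subunits and partners outside the symbol rule the median was 0.18, and Atpif1, the ATPase inhibitory factor, had the smallest p at -0.46 ± 0.30 (adjusted p = 0.587).

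Of 17 regulators of mitochondrial gene expression, 10 were higher and 3 lower in Foxp3-DTR with groups that did not overlap, against 22% and 23.7% of all genes tested, and the median over the list was 0.11 on the log2 scale. The smallest p was that of Ppargc1b, a coactivator that induces oxidative metabolism genes, at 3.38 CPM in WT A and 4.86 in WT C, and at 26.1 and 11.9 CPM in Foxp3-DTR C and D. Its log2 fold change was 2.20 ± 0.49 (SE; edgeR adjusted p = 0.0865), short of the threshold. Its partner Esrra, the estrogen-related receptor alpha, was at 31.3, 22.0, 51.2 and 45.7 CPM, a log2 fold change of 0.86 ± 0.25 (adjusted p = 0.164), and the related coactivator Pprc1 at 54.6, 40.5, 91.0 and 67.7 CPM, 0.74 ± 0.24 (adjusted p = 0.218). Nrf1, the nuclear respiratory factor, was at 48.7, 42.6, 39.4 and 35.9 CPM, and Tfam, which packages and transcribes mitochondrial DNA, at 59.9, 61.6, 63.7 and 64.3. Their log2 fold changes were -0.28 and 0.07. Of these regulators, all but Ppargc1b were named after their values were seen. Over the whole list, 11 estimates were above 0 and 6 below, and the values of the other regulators are not given here.

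Promoter sequence was available for 69 of the 82 members, as 250 bases before to 50 after the RefSeq start (GRCm38.p6). The nuclear respiratory factor motif GCGCANGCG, searched on both strands, occurred in 19 of the 69 (27.5%) and in 6.47% of all 27025 promoters of that length. The YY1 motif AANATGGCG occurred in 9 (13.0%, against 2.51%), the ETS motif CCGGAAGT, bound by GABP, in 5 (7.25%, against 4%) and the estrogen-related receptor motif TCAAGGTCA in 2 (2.90%, against 0.407%), namely Atp5g3 and Sdhd. A match is a description of the letters and not evidence of binding. The 100 bases before the start are shown for 4 of the members described above that hold the nuclear respiratory factor motif there, written 5′ to 3′ on the gene's strand with the motif in capitals: Sdha (chr13:74350241-74350340, minus strand), which holds it 3 times, Sdhd (chr9:50603850-50603949, minus strand), Ndufa11 (chr17:56717662-56717761, plus strand) and Atp5g2 (chr15:102671048-102671147, minus strand).
Sdha: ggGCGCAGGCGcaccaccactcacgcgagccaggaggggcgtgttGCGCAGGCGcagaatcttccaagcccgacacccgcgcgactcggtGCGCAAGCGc
Sdhd: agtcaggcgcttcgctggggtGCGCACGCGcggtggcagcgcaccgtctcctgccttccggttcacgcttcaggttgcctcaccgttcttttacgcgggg
Ndufa11: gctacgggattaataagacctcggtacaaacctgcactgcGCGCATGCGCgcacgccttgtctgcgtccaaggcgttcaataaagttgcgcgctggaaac
Atp5g2: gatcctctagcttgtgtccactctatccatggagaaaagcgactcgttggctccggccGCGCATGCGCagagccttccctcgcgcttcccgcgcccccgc
In Ndufa11 and Atp5g2 the capitals run 1 base longer because the motif matches on both strands there. Of these genes, Sdha and Sdhd had non-overlapping groups with higher values in Foxp3-DTR, and Ndufa11 overlapped. Atp5g2 was lower without overlap, on 23, 26, 11 and 17 counts. Over all genes tested, 22% were higher and 23.7% lower without overlap. Ndufb4, which also holds the motif in these bases and is not shown, overlapped. For the 4 genes shown, edgeR called 0, and whether the motif goes with a difference between groups was not tested.

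Proliferation genes gave a contrast in size. All 6 markers (Mki67, Top2a, Pcna, Mcm2, Ccnb1, Cdk1) were lower in both Foxp3-DTR libraries than in both WT libraries, against 23.7% of all genes tested. Their median log2 fold change was -2.05, though the smallest edgeR adjusted p was 0.0543, for Mcm2, and 0 passed. This list was chosen with earlier results of these data known. Of all 6 markers the estimate nearest 0 was -1.12, beyond the range of every respiratory chain member. Bulge markers had a median of -0.15 over 9 genes with 0 called, and the smallest p was that of Lhx2, a stem cell transcription factor, at 789, 804, 425 and 439 CPM (adjusted p = 0.0778).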

How the data were processed

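RNA of sorted hair follicle stem cells was sequenced in 4 libraries, prepared with a stranded mRNA kit per the labels' protocols. The deposited values are counts of reads per gene symbol, not normalized. HTSeq 0.6.1, SAMtools 0.1.19.0, Bowtie2 2.1.0.0, TopHat2 2.0.12 and CASAVA 1.8.2 are named in the submitters' processing notes, with build mm10 and with annotation and strand setting not given in the sources used here, so reads of the 25 members that overlap an antisense gene cannot be separated from it. The counter's 5 rows that name no gene held 62.0% to 70.1% of counts and were left out.

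Foxp3-DTR was compared with WT by edgeR 4.0.16 in R 4.3.3 (TMM factors, filterByExpr, robust quasi-likelihood test, group only), with Benjamini-Hochberg adjustment over the 12920 genes tested and a threshold of 0.05. The script was tested on simulated data. The common biological coefficient of variation was 0.309. Counts of replicate libraries differed beyond sampling noise (chi-square per degree of freedom 74.2 in WT and 37.3 in Foxp3-DTR). Alternatives were RLE factors, DESeq2 1.42.0, limma-voom 3.58.1, no filter, TMM factors without the members, each library left out, and members without copies only; an epidermal covariate (mean log2 CPM of Krt1, Krt10, Krtdap and Dsg1a), short genes only and transcript length were added after seeing the data. Copies were found with BLAST 2.17.0 among GENCODE transcripts of the same build.

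Members and companion lists (subunits outside the symbol rule, assembly, citric acid cycle, regulators, import, mitochondrial ribosome, proliferation and cell type markers) were chosen with earlier results of these data known. Named were, per complex, the 2 highest members per length and the largest and smallest fold change, any member past the threshold, fixed isoforms, Ndufs1 and Sdha, and each list's gene of smallest p. Values of 1 member are not reported here, though it is counted in every total.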

Additional observations from a re-analysis of the deposited data

How the results depend on the processing

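Members called numbered 0 in each direction under every alternative run. No paired analysis was possible because the groups share only 1 replicate letter. Over all genes, counts higher and lower in Foxp3-DTR moved from 106 and 55 to 489 and 514 with DESeq2, 70 and 23 with limma-voom, 277 and 252 with no filter and 759 and 779 with the epidermal covariate, and ranged from 66 to 203 and from 14 to 220 with 1 library left out. The cause was not tested. With 1 library left out, the member median ranged from -0.26 to 0.29, complex I from -0.29 to 0.26, II from -0.0315 to 0.23, III from -0.21 to 0.39, IV from -0.23 to 0.32 and V from -0.26 to 0.30; complex II was 0.26 over short genes, which leaves 1 of its genes. Signs turned, with 1 library left out, for Atp5g1 (-0.68 to 0.28), Atp5g3 (-0.20 to 0.40), Atp5l (-0.31 to 3.99, -0.21 without WT A), Cox6b1 (-0.12 to 0.41, -0.09 without Foxp3-DTR D), Ndufa11 (-0.31 to 0.37, 0.07 without Foxp3-DTR C), Ndufa2 (-0.53 to 0.0223), Ndufa4l2 (-0.66 to 1.30), Sdhb (-0.26 to 0.0324), Uqcr10 (-0.19 to 0.36) and Uqcrc1 (-0.29 to 0.15). Ndufa11 also turned to 0.0192 with limma-voom, 0.00099 with no filter and 0.0018 with the covariate. The other 194 values of named members had the direction and side of the threshold of the reported value, but sizes moved by over 1.5 times with 1 library left out, as for Ndufb4 (-1.39 to -0.26), Atp5g2 (-1.12 to -0.41), Atp5a1 (0.04 to 0.31), Atp5b (0.07 to 0.52), Uqcrh (0.07 to 0.56), Ndufs1 (0.10 to 0.45) and Cox8a (0.27 to 0.63). Depth limits Cox7a1, Cox8b, Cox6a2, Cox7b2 and Cox8c, with 0 to 3 counts per library.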

Other observations

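T cell markers summed to 5.14 CPM in WT A and 0.0615 in WT C, and 0.928 and 0.354 CPM in Foxp3-DTR C and D, and 0 of 6 had enough counts to be tested. Myeloid markers summed to 25.3, 3.57, 24.7 and 7.65 CPM in the same order, and the gene of smallest p was Fcer1g, an Fc receptor chain, with an edgeR adjusted p of 0.218. Fibroblast markers summed to 40, 53.4, 27.9 and 31.8 CPM, and Col1a1 was at 15.1, 16.4, 3.05 and 5.74 CPM (adjusted p = 0.0982). Endothelial markers summed to 4.44, 4.74, 2.92 and 1.91 CPM, with Tek at an adjusted p of 0.347. Melanocyte markers summed to 32.2, 18.1, 31 and 42.9 CPM, with Pmel, a melanosome protein, at an adjusted p of 0.237. Of the lists given earlier, the sebaceous gene of smallest p was Plin2 (adjusted p = 0.245) and the interfollicular one was Ivl (adjusted p = 0.893). In each of these lists edgeR called 0 genes.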
